A study of Sus scrofa with 40 samples.

Results

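The genes described here are transcription factors of the early stress response: EGR1, EGR2 and EGR3, KLF2, KLF4 and KLF6, the nuclear receptors NR4A1, NR4A2 and NR4A3, and the early response protein IER2. They were followed on 40 single-color 44k porcine arrays as every non-control probe whose gene name was a member symbol or whose description gave the symbol in brackets. Of 10 symbols searched, 8 were found, with 22 probes that belong to 9 of the 35955 identifiers measured. NR4A1 and IER2 had no such probe and were not analysed here. EGR1 and KLF4 are also among the genes the study itself picked from these samples, so their direction is not independent evidence.

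Samples came from kidneys of Large White pigs aged 3 months, described in the methods as brothers under the same anesthesia and surgery, and they form 8 groups of 5 samples. Kidneys of the control condition (Ctl) went to sampling directly after removal. Warm ischemia kidneys (WI) stayed clamped for 60 min at 37 °C before sampling. A separate set of kidneys had the same warm ischemia, was flushed with University of Wisconsin solution and was kept at 4 °C, and these kidneys were sampled at 6 h (WI+CS6h) and again at 24 h (WI+CS24h). Each condition was sampled in cortex (C) and in corticomedullary junction (CMJ), and the methods list both tissues under the kidneys of a condition without saying which cortex and CMJ samples share a kidney. All samples are bulk tissue, in which fewer cells of a type and less RNA per cell cannot be told apart.

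Early factors are the cell's fast transcriptional answer to stress. Kinase cascades act on proteins already bound at their promoters, so their RNA can appear without new protein synthesis, and the factors they encode then switch on later genes. EGR proteins are zinc-finger activators of growth and matrix genes, KLF proteins bind related GC-rich boxes and govern endothelial calm and epithelial differentiation, and NR4A proteins are nuclear receptors that act without a known ligand, so that their amount sets their activity. In the kidney, EGR1 and the KLF factors are well known from ischemic injury.

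Because these families carry related DNA-binding domains, the probes were compared letter by letter, and 6 array probes are shown, for each of 6 genes the probe nearest the 5′ end of its transcript. NR4A2 is left out, since its probes may lie in untranslated sequence. Capitals mark the longest exact run shared with a probe of another gene of this set, and the number is the first base of the probe in its transcript.
EGR1 1517: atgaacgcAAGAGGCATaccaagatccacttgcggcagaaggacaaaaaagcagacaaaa
EGR2 741: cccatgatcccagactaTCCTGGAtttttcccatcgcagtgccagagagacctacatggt
KLF2 404: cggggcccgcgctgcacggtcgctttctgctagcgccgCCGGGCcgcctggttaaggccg
KLF4 1886: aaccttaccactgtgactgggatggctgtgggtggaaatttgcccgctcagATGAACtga
KLF6 351: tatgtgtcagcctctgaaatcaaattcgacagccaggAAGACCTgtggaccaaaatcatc
NR4A3 1356: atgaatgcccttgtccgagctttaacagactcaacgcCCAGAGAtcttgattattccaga
Over all 22 probes the longest run shared between different genes of the set was 11 of 60 bases. The longest run shared with a probe of any other gene on the array was 16 bases, and 11 of the 22 probes shared at least 14. The array's coordinates name no genome build, so none are given.

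Between 57.0% and 69.9% of the spots of an array were well above background, with group medians of 62.0% to 67.1%, and the 40 arrays lay on 10 slides scanned on 2 days. Values are log2 processed signal after quantile normalization, averaged over the probes of an identifier, and levels of different identifiers are not compared. A difference was called where limma gave an adjusted p below 0.05 and the log2 fold change was 0.5 or more in size. KLF2, KLF4, KLF6, NR4A3 and the NR4A2 identifier NM_001190276 were well above background on all 40 arrays. EGR1 missed that on 1 control CMJ array, EGR3 reached it on 10 arrays and EGR2 on 0. EGR1, EGR2, EGR3 and each NR4A2 identifier were read by 1 probe only, so agreement between probes could not be checked for them.

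Against control cortex, the median change of the 9 identifiers was 0.25 after WI, 0.84 after 6 h of cold storage and 0.72 after 24 h, while the medians over all identifiers were 0.01, 0.05 and 0.01. Of the 9, 1 was called higher after WI, where 0.0278% of all identifiers were, 5 after WI+CS6h, where 1.63% were, and 5 after WI+CS24h, where 1.04% were. In CMJ the medians were 0.93, 0.74 and 0.80 beside −0.01, −0.01 and 0.00 over all identifiers. There, 2 were called higher after WI, where 0.37% of all were, 3 after WI+CS6h, where 1.35% were, and 5 after WI+CS24h, where 1.35% were. Over all comparisons of groups, within and between tissues, members were called 31 times, each time higher in the group named first here: the later stage against the earlier, or CMJ against cortex. Counted by samples that did not overlap, 4, 5 and 5 of the 9 stood apart from Ctl-C in WI-C, WI+CS6h-C and WI+CS24h-C, where 1.68%, 5.23% and 5.73% of all identifiers did. In CMJ 5, 3 and 5 stood apart, beside 3.9%, 5.96% and 5.45%. Against WI samples 2 and 3 stood apart in cold-stored cortex, beside 3.27% and 3.38%, and 0 and 1 in cold-stored CMJ, beside 5.91% and 4.58%. In all 6 comparisons with controls the largest changes were those of EGR1 and of NR4A2, and KLF4 came next in cold-stored cortex.

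**Figure D1:**
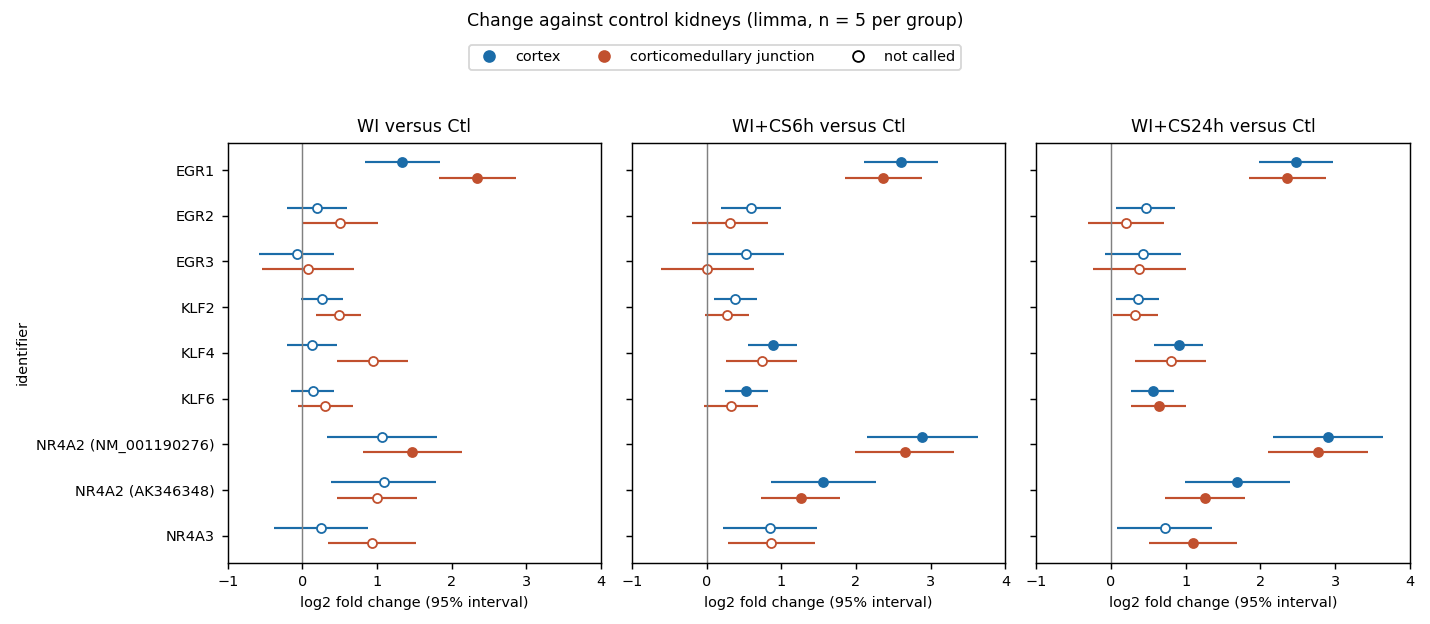
Log2 fold change (x axis) of the 9 identifiers (y axis) against the control group of the same tissue after WI, WI+CS6h and WI+CS24h, with 95% intervals from limma, 5 samples per group, cortex in blue and CMJ in red, open points where the difference was not called. EGR1 and NR4A2 (NM_001190276) lie farthest from 0 after cold storage, at 2.36 to 2.91, and after WI EGR1 lies at 1.34 in cortex and 2.34 in CMJ.

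EGR1, a zinc-finger activator of growth factor, coagulation and matrix genes, was higher in every ischemic group than in its controls. In control cortex its log2 signal was 3.38, 2.77, 2.92, 2.45 and 4.05, and in WI-C it was 4.17, 4.24, 4.76, 4.44 and 4.65. After cold storage in cortex it was 6.06, 5.51, 5.68, 5.59 and 5.74 at 6 h and 5.54, 5.99, 5.10, 5.77 and 5.57 at 24 h. The 3 levels formed steps without overlap, controls lowest and cold-stored samples highest. The change against Ctl-C was 1.34 (SE 0.24, adjusted p = 0.0280) after WI, 2.60 (SE 0.24, adjusted p = 7.37e-06) after WI+CS6h and 2.48 (SE 0.24, adjusted p = 1.42e-05) after WI+CS24h, which are 2.53-fold, 6.08-fold and 5.57-fold. Both cold-stored groups of the cortex were also higher than WI-C, by 1.27 (adjusted p = 0.00856) and 1.14 (adjusted p = 0.0194).

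In CMJ the EGR1 step came with warm ischemia alone, although its change is not shown to differ between tissues, as given below. Control CMJ gave 3.56, 2.67, 3.32, 3.08 and 4.38, and WI-CMJ gave 5.62, 5.35, 5.87, 5.78 and 6.12. Cold-stored CMJ gave 5.65, 5.57, 5.53, 5.87 and 6.21 at 6 h and 5.80, 5.74, 5.59, 5.47 and 6.21 at 24 h. All 15 ischemic samples lay above all 5 controls, and the 3 ischemic groups overlapped throughout. The change against Ctl-CMJ was 2.34 (SE 0.24, adjusted p = 7.44e-05) after WI, 2.36 after WI+CS6h and 2.36 after WI+CS24h. Relative to WI-CMJ, the cold-stored groups differed by 0.02 at 6 h (95% interval −0.50 to 0.53) and by 0.02 at 24 h (−0.50 to 0.53).

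The size of the EGR1 change depends on the background correction, since its signal is low. With normexp and an offset of 50, which compresses low signals by construction, EGR1 changed by 0.13 after WI and 0.41 after WI+CS6h in cortex and by 0.38 after WI in CMJ, and in the deposited log2 matrix by 0.45 after WI and 1.17 after WI+CS6h in cortex. With slide as a block, the calls of EGR1 in WI-C (1.56, adjusted p = 0.462), in WI-CMJ (2.35, adjusted p = 0.115) and in cold-stored cortex against WI-C (1.14 and 1.04, adjusted p = 0.336 and 0.129) were lost, and those against controls after cold storage held. The call in WI-C was lost when any of 8 of the 10 arrays compared was left out (all but Ctl-C replicate 5 and WI-C replicate 1, with changes of 1.17 to 1.40 and adjusted p up to 0.123). The calls of EGR1 against controls after cold storage held with each array left out in turn. Within the first scan day EGR1 changed by 2.67 in WI+CS6h-C and within the second by 2.56, and in WI-CMJ by 1.73 and 2.89.

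EGR2, which drives myelin genes in Schwann cells, and EGR3, known from muscle spindles and T cells, were dim. EGR2 was not well above background on any array, and its 8 group means lay between 0.63 and 1.30. EGR3 was well above background on 0 to 2 of 5 arrays per group, with group means between 1.85 and 2.45. Neither was called in any comparison, and the largest change of EGR2 against controls, 0.59 in WI+CS6h-C, had an adjusted p of 0.0812. Whether these genes respond in this tissue was not detectable at this signal.

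**Figure D2:**
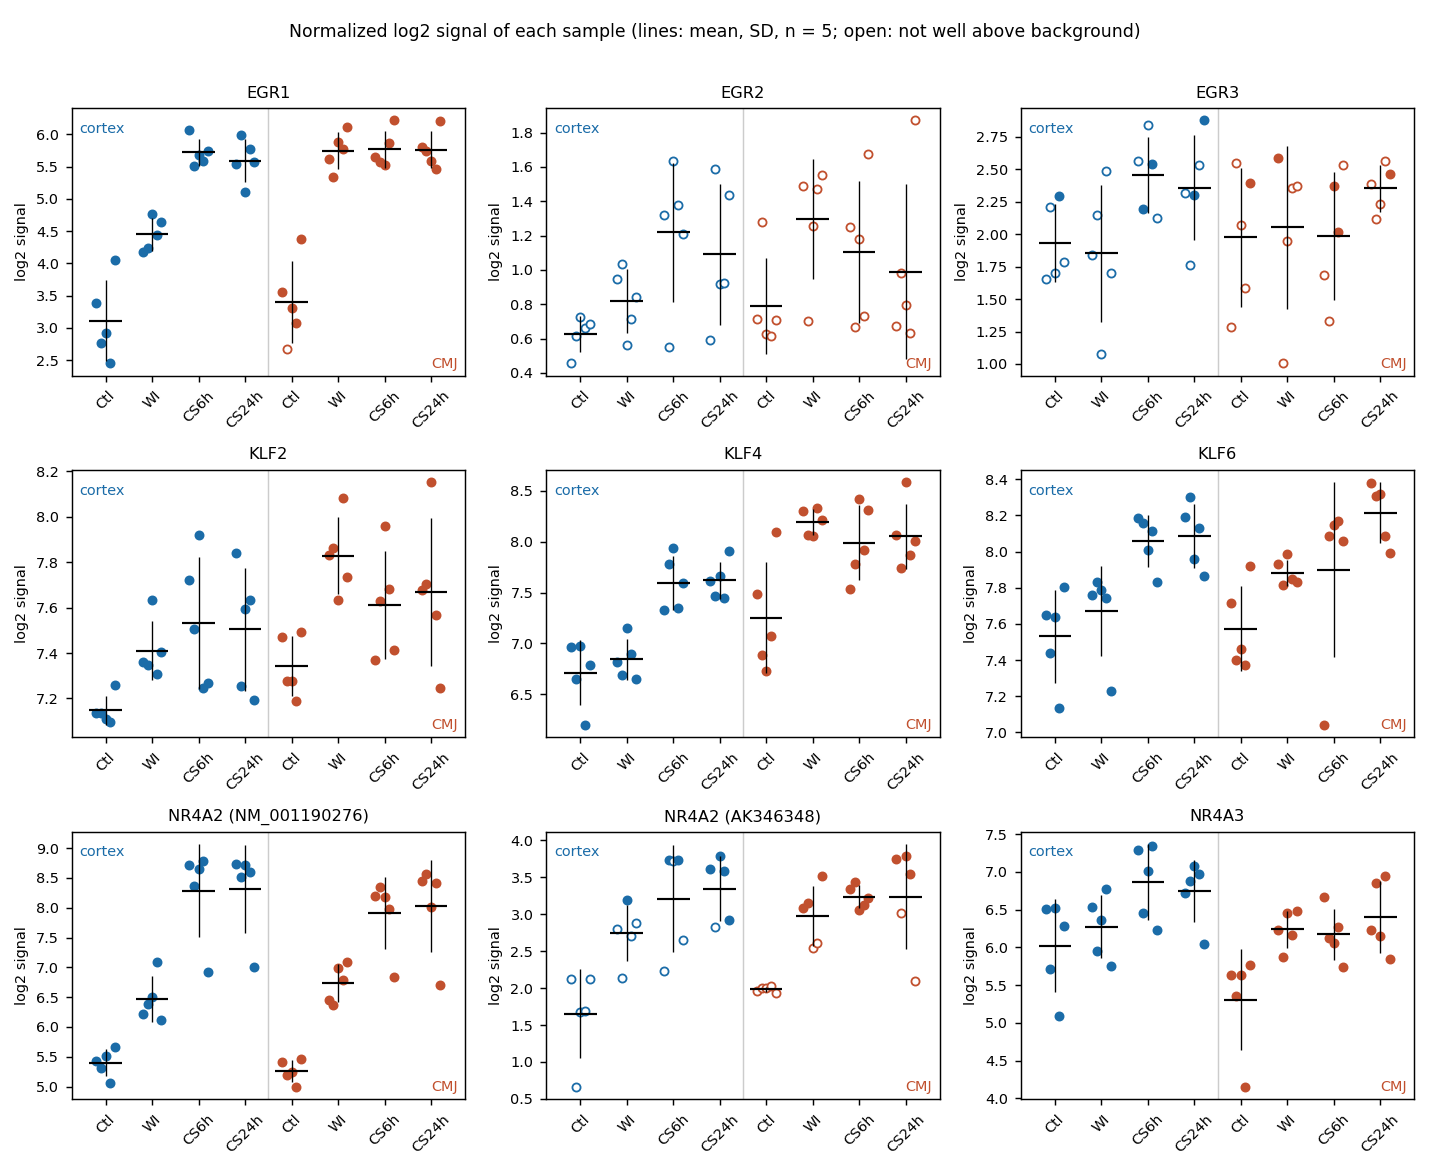
Normalized log2 signal (y axis, its own scale for each identifier) of each of 40 samples by condition (x axis), cortex in blue left of the line and CMJ in red right of it, horizontal lines at the mean and vertical lines at 1 SD of 5 samples, open points for spots not well above background. EGR1 rises in 2 steps in cortex and in 1 step in CMJ, a change not shown to differ between tissues. NR4A2 rises in steps in both tissues with a low sample in each cold-stored group, and EGR2 is open in all 40 samples.

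NR4A2, a nuclear receptor best known for the upkeep of dopamine neurons, had the largest changes of the set after cold storage in cortex. The identifier NM_001190276 gave 5.43, 5.32, 5.51, 5.07 and 5.66 in control cortex and 6.22, 6.38, 6.51, 7.10 and 6.11 in WI-C. It gave 8.71, 8.37, 8.65, 8.78 and 6.92 in WI+CS6h-C and 8.73, 8.51, 8.71, 8.59 and 7.00 in WI+CS24h-C. Every ischemic sample lay above every control, and in each cold-stored group replicate 5 lay far below the other samples and within the WI range. The change against Ctl-C was 2.89 (SE 0.35, adjusted p = 0.000151) at 6 h and 2.91 (SE 0.35, adjusted p = 0.000155) at 24 h, or 7.41-fold and 7.51-fold. After WI alone it was 1.07 (SE 0.35, adjusted p = 0.660), not called although the groups did not overlap, as was true of 1.68% of all identifiers in that comparison. Cold-stored cortex was higher than WI-C by 1.82 (adjusted p = 0.00998) and 1.84 (adjusted p = 0.0113), beside 1% and 0.637% of all identifiers called higher there. Both were lost with slide as a block (1.74 and 1.96, adjusted p = 0.337 and 0.0707), while the calls against Ctl-C held. With normexp the changes against Ctl-C were called but smaller, at 1.30 and 1.32, and in the deposited log2 matrix they were 2.24 and 2.27.

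In CMJ the same identifier gave 5.42, 5.19, 5.24, 4.99 and 5.46 in controls and 6.45, 6.36, 6.98, 6.79 and 7.09 in WI-CMJ. It gave 8.19, 8.35, 8.19, 7.97 and 6.85 in WI+CS6h-CMJ and 8.45, 8.57, 8.02, 8.42 and 6.70 in WI+CS24h-CMJ. Controls stood apart below all others, and replicate 5 was again the lowest of each cold-stored group, within the range of WI-CMJ. The change against Ctl-CMJ was 1.47 (SE 0.32, adjusted p = 0.0366) after WI, 2.65 (SE 0.32, adjusted p = 9.00e-05) at 6 h and 2.77 (SE 0.32, adjusted p = 5.58e-05) at 24 h. Against WI-CMJ it was 1.18 (adjusted p = 0.0458) at 6 h and 1.30 (adjusted p = 0.0274) at 24 h, where 1.37% and 1.24% of all identifiers were called higher. These 2 calls and that of WI-CMJ were lost when single arrays were left out, in 9, 6 and 7 of 10 cases, with changes no lower than 1.07, 1.16 and 1.38. With slide as a block, those of WI-CMJ (1.55, adjusted p = 0.248) and of 6 h against WI-CMJ (1.10, adjusted p = 0.253) were lost. With normexp NR4A2 (NM_001190276) changed by 0.46 in WI-CMJ, which was not called, and by 1.08 and 1.16 in cold-stored CMJ against controls, which were. Within the 2 scan days NR4A2 (NM_001190276) differed from controls by 3.27 and 2.63 in WI+CS6h-C, and in WI+CS6h-CMJ by 2.25 and 2.92.

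The 24 h samples are the same kidneys as the 6 h samples, and NR4A2 (NM_001190276) varied little between the times within a kidney. The difference of 24 h minus 6 h was 0.02 ± 0.12 (SD, n = 5) in cortex and 0.12 ± 0.27 (SD, n = 5) in CMJ. The other NR4A2 identifier, AK346348, varied more between the times, with SDs of 0.82 in cortex and 0.76 in CMJ. Replicate 5 was also the lowest cold-stored sample of NR4A3 in all 4 cold-stored groups and of KLF6 in WI+CS6h-C, WI+CS24h-C and WI+CS24h-CMJ, but it was the highest CMJ sample of EGR1 at both times. Without the cold-stored samples of number 5 in either tissue, all 26 calls of members in comparisons that include cold-stored samples held.

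**Figure D3:**
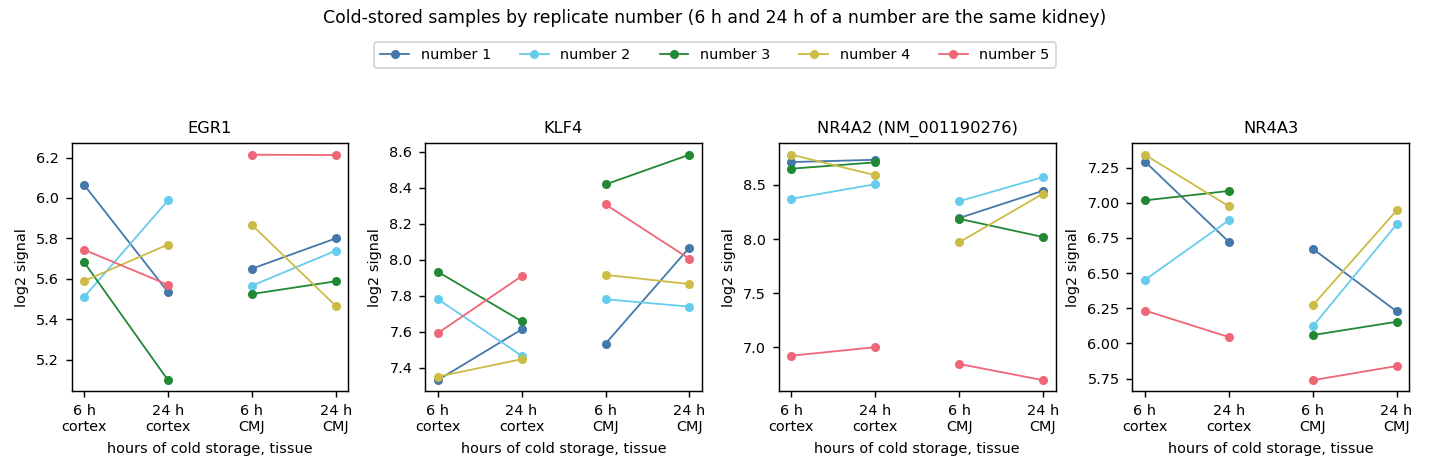
Log2 signal (y axis, its own scale in each panel) of EGR1, KLF4, NR4A2 and NR4A3 in cold-stored cortex and CMJ at 6 h and 24 h (x axis), 1 line per kidney number joining the same kidney at the 2 times. The line of number 5 lies at 6.70 to 7.00 for NR4A2 while the other 4 lie at 7.97 to 8.78, and number 5 is also lowest for NR4A3 and highest for EGR1 in CMJ.

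The NR4A2 identifier AK346348 was not well above background on any control array, so only approximate lower limits can be given against controls. They rest on the lowest signal of any probe that was well above background on the control arrays. These limits are not strict. In WI+CS6h-C, replicates 2, 3 and 4 gave 3.73, 3.72 and 3.73, yet only 2 of 5 arrays were well above background. WI+CS6h-C (measured on 2 of 5 arrays) was at least 2.00-fold higher (adjusted p = 0.0115) and WI+CS24h-C (4 of 5) at least 2.19-fold higher (adjusted p = 0.00843). In CMJ both cold-stored groups, measured on 5 and 3 of 5 arrays, were at least 1.91-fold higher (adjusted p = 0.00717 and 0.00595). WI alone gave at least 1.45-fold in cortex and 1.60-fold in CMJ, neither called (adjusted p = 0.590 and 0.0713). With slide as a block only the call in WI+CS6h-CMJ held (adjusted p = 0.0230, against 0.0632, 0.201 and 0.119 in the others), and in the deposited log2 matrix the 4 changes were 0.21 to 0.29, below the limit for a call. Both identifiers of NR4A2 were thus called in the same 4 comparisons of cold-stored samples with controls, while in the 4 comparisons with WI samples only NM_001190276 was.

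NR4A3, a related receptor with roles in metabolism and T cells, was read by 4 probes that did not move alike. Averaged, it gave 5.63, 5.35, 5.63, 4.15 and 5.77 in control CMJ and 6.23, 6.85, 6.15, 6.95 and 5.84 in WI+CS24h-CMJ, groups that did not overlap. That difference of 1.10 (SE 0.28, adjusted p = 0.0276) was its only call in the 12 comparisons within a tissue, beside 5.45% of all identifiers without overlap there. It was lost without Ctl-CMJ replicate 2 (1.11, adjusted p = 0.0556), WI+CS24h-CMJ replicate 2 (0.99, adjusted p = 0.0741) or WI+CS24h-CMJ replicate 4 (0.96, adjusted p = 0.0700), and with slide as a block (1.43, adjusted p = 0.162) or in the deposited log2 matrix (0.57, adjusted p = 0.0936). Of 18 other settings of the processing and the fit, it was called in 9.

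The probe at base 1356 of NR4A3, shown above, rose far more than the 3 probes near the end of the transcript at bases 4659, 4864 and 4981. In cortex it changed by 1.01 (SE 0.37, not called) after WI, by 1.80 (SE 0.37, adjusted p = 0.00876) at 6 h and by 1.73 (SE 0.37, adjusted p = 0.0142) at 24 h. In CMJ it rose by 2.11 (SE 0.41, adjusted p = 0.0214), 2.07 (adjusted p = 0.00614) and 2.15 (adjusted p = 0.00410). The 3 late probes changed by −0.03 to 0.58 in cortex and by 0.44 to 0.75 in CMJ, and none was called. The probe at base 1356 was well above background on 37 of 40 arrays, and each of the others on 40. It was thus the only probe called in WI+CS24h-CMJ, where the average was called, and its mean signal in Ctl-CMJ was 2.35. The difference between probes was not itself tested.

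KLF4, a zinc-finger factor of epithelial barriers and of endothelium under flow, was called higher in cold-stored cortex. Its values were 6.96, 6.65, 6.97, 6.20 and 6.79 in control cortex and 6.82, 6.69, 7.16, 6.90 and 6.65 in WI-C. They were 7.33, 7.78, 7.93, 7.35 and 7.59 in WI+CS6h-C and 7.61, 7.47, 7.66, 7.45 and 7.91 in WI+CS24h-C. Control and WI samples overlapped, and all 10 cold-stored samples lay above both. The change against Ctl-C was 0.13 (adjusted p = 1.00) after WI, 0.88 (SE 0.16, adjusted p = 0.00343) at 6 h and 0.90 (SE 0.16, adjusted p = 0.00337) at 24 h. Against WI-C it was 0.75 (adjusted p = 0.0153) and 0.78 (adjusted p = 0.0160), the last lost without WI-C replicate 5 (0.73, adjusted p = 0.0509). Each of the 7 KLF4 probes was called in all 4 of these comparisons of cold-stored cortex, although 3 of them overlap in sequence. With slide as a block the call at 6 h against Ctl-C held (0.92, adjusted p = 0.0419), and those at 24 h (0.81, adjusted p = 0.209) and against WI-C (0.85 and 0.74, adjusted p = 0.418 and 0.213) were lost. With normexp the changes against Ctl-C were 0.42 and 0.43, too small for a call. Within the first scan day the change of KLF4 against Ctl-C was 0.37 at 6 h and 0.54 at 24 h and within the second 1.22 and 1.24, none of them called.

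In CMJ, KLF4 was already high after warm ischemia, at 8.30, 8.06, 8.06, 8.33 and 8.21 in WI-CMJ. Control CMJ gave 7.48, 6.89, 6.73, 7.07 and 8.10, so that 1 control, replicate 5, lay within the WI range. The changes of 0.94 (SE 0.23, adjusted p = 0.0589) after WI, 0.74 (adjusted p = 0.0782) at 6 h and 0.80 (adjusted p = 0.0501) at 24 h were not called. In the fit to all 40 arrays, which is the one used for differences between tissues, the same changes were called (adjusted p = 0.0178, 0.0295 and 0.0151), as they were when dim identifiers were left out (adjusted p = 0.0376, 0.0493 and 0.0305). Without Ctl-CMJ replicate 5 they were 1.15 (adjusted p = 0.0115), 0.95 (adjusted p = 0.0104) and 1.01 (adjusted p = 0.00626), and all 3 were called. The same control was the highest of Ctl-CMJ for EGR1, KLF2, KLF6, NR4A2 (NM_001190276) and NR4A3 too.

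KLF6, a widely expressed KLF factor induced by tissue injury, changed less. It gave 7.65, 7.44, 7.64, 7.13 and 7.80 in control cortex, 8.19, 8.16, 8.01, 8.11 and 7.83 at 6 h and 8.19, 8.30, 7.96, 8.13 and 7.86 at 24 h. The cold-stored samples did not overlap the controls, though the margin was narrow. The change was 0.53 (SE 0.14, adjusted p = 0.0324) at 6 h and 0.56 (SE 0.14, adjusted p = 0.0325) at 24 h, and in WI+CS24h-CMJ it was 0.64 (SE 0.17, adjusted p = 0.0408). These 3 calls were lost in 6, 7 and 8 of the 10 cases with 1 array left out, with changes no lower than 0.43, 0.46 and 0.59, and all 3 were lost with slide as a block (0.55, 0.44 and 0.56, adjusted p = 0.0648, 0.302 and 0.204). Of 18 other settings of the processing and the fit, they were called in 8, 10 and 11, with the same direction in all 18.

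The KLF6 value of WI+CS6h-CMJ is set by 1 spot. Its samples gave 7.04, 8.08, 8.15, 8.17 and 8.06, and in the low sample, replicate 1, the spot of the KLF6 probe at base 1426 had been marked as an outlier and so was missing from the average. As computed, the change against Ctl-CMJ was 0.33 (SE 0.17, adjusted p = 0.395). With outlier-marked spots kept, a setting chosen after seeing the data, replicate 1 was 8.11 and the change was 0.54 (SE 0.099, adjusted p = 0.00372), which is called. By single probe, 3 of the 4 were called in that comparison and all 4 in WI+CS24h-CMJ, against 2 of 4 in each cold-stored group of the cortex.

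KLF2, the flow-induced factor of endothelium, was not called in any comparison. Its values ran from 7.10 to 7.26 in control cortex and from 7.31 to 7.63 in WI-C, without overlap, but the change was 0.26 (SE 0.14, adjusted p = 1.00). In CMJ they ran from 7.19 to 7.49 in controls and from 7.64 to 8.08 in WI-CMJ, again without overlap, with a change of 0.49 (SE 0.14, adjusted p = 0.119). Its probe at base 404 changed by 0.62 (SE 0.21) and its probe at base 1549 by −0.09 (SE 0.21) in WI-C, and neither was called. A further probe set described as Kruppel-like factor 2 (human), outside the rule for members, was not called in any comparison either.

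**Figure D4:**
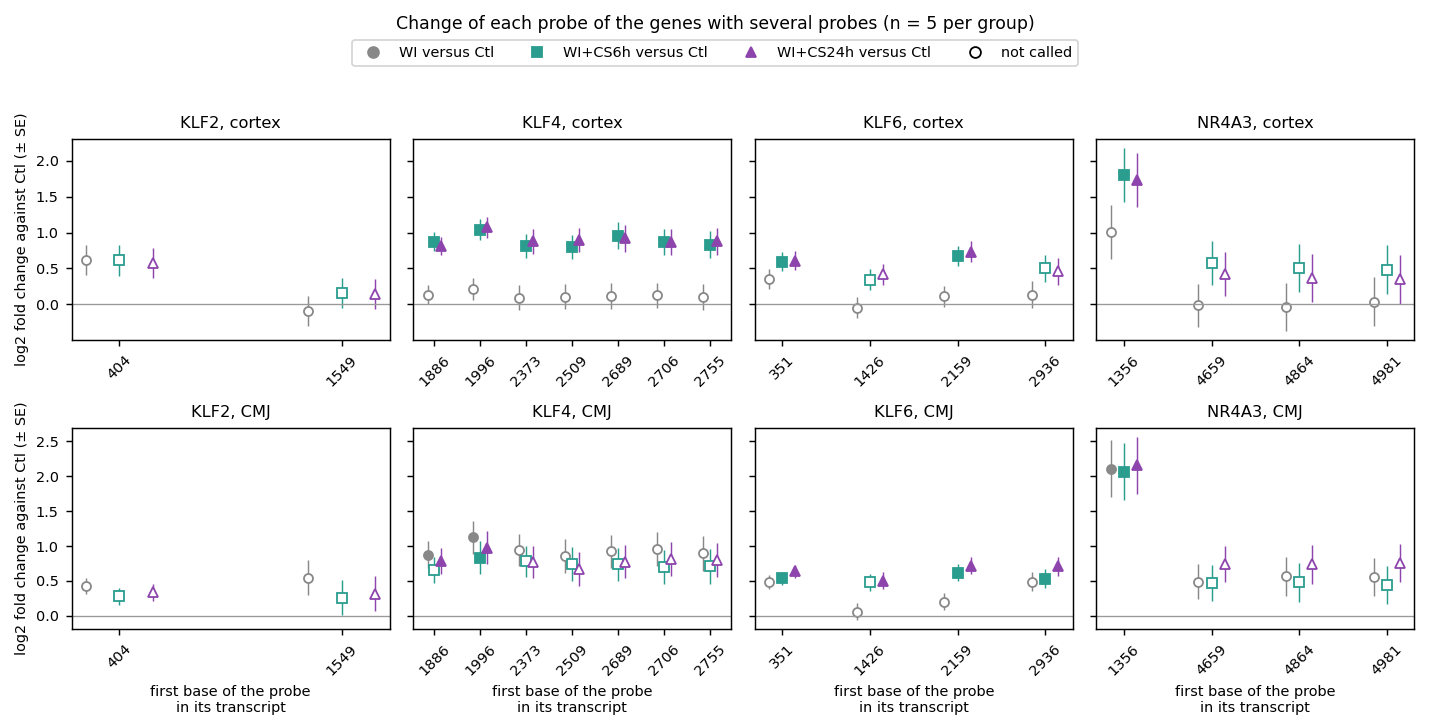
Log2 fold change against the control group of the same tissue (y axis, ± SE, 5 samples per group) of each probe of KLF2, KLF4, KLF6 and NR4A3 by its first base in the transcript (x axis), cortex above and CMJ below, with open symbols where not called. The 7 KLF4 probes lie together at 0.80 to 1.07 in cold-stored cortex, while the NR4A3 probe at base 1356 stands above the 3 later probes in both tissues.

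No member was called between 24 h and 6 h of cold storage in limma, and none had an unadjusted p under 0.05, where 0% of all identifiers were called in cortex and 0.00278% in CMJ. With the kidneys paired, in a fit of the 10 cold-stored arrays of a tissue chosen after seeing the data, 0 members were called either. The 95% intervals of 24 h minus 6 h were then −0.60 to 0.35 for EGR1 in cortex and −0.25 to 0.24 in CMJ, and for NR4A2 (NM_001190276) −0.20 to 0.24 in cortex and −0.16 to 0.40 in CMJ. For KLF4 they were −0.32 to 0.36 and −0.25 to 0.37.

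Between tissues, 2 members were called higher in CMJ than in cortex after warm ischemia alone, beside 0.593% of all identifiers. EGR1 was higher by 1.29 (SE 0.25, adjusted p = 0.00512) and KLF4 by 1.35 (SE 0.20, adjusted p = 0.000611), and in both the 5 WI-CMJ samples lay above the 5 WI-C samples, as they did for KLF2. Both calls held with same-numbered cortex and CMJ samples paired (adjusted p = 0.000378 and 0.000904) and with slide as a block, and with normexp EGR1 was higher by 0.28, too little for a call. EGR1, KLF4 and KLF2 were 3 of 9 members without overlap, beside 3.17% of all identifiers. In controls no member was called between tissues (2 had an unadjusted p under 0.05, and 0.27% of all identifiers were called higher), and KLF4 differed by 0.54 (SE 0.20, adjusted p = 0.449). After cold storage no member was called either (0.0584% called higher at 6 h, 0% at 24 h), with differences of 0.05 and 0.17 for EGR1 and of 0.39 and 0.43 for KLF4. The interaction of tissue and warm ischemia was 1.01 (SE 0.35) for EGR1 and 0.81 (SE 0.28) for KLF4, both with an adjusted p of 1.00. In limma 0% of all identifiers were called in each of the 5 interactions, and of the members only EGR1 and KLF4 had an unadjusted p below 0.05 in any, so that the change is not shown to differ between tissues. In the step from WI to WI+CS6h the interaction was −1.25 for EGR1 and −0.96 for KLF4, both with an adjusted p of 0.890.

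Stromal markers moved with that tissue difference. Of the 5 fibroblast and smooth muscle markers of 11 listed that are on the array, 3 were also higher in WI-CMJ than in WI-C, CNN1 by 1.92, COL1A2 by 1.51 and ACTA2 by 0.86. The log2 of their summed signal ran from 11.91 to 12.43 in WI-C and from 12.44 to 13.80 in WI-CMJ, and in Ctl-CMJ from 11.97 to 12.95. Each of the 5 was well above background on at least 20 arrays. The thick limb marker SLC12A1 was higher by 1.16 (by 1.24 in controls, where KCNJ1 was higher by 0.69), and 0 of 6 endothelial markers were called, with sums of 12.14 to 12.47 in WI-C and 12.25 to 12.70 in WI-CMJ. The part of these cell types in the EGR1 and KLF4 values was not tested.

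Markers of several cell types moved with cold storage. ANPEP, a brush border enzyme of the proximal tubule, was higher than in controls by 1.01 and 0.96 in cold-stored cortex and by 0.99 in WI+CS6h-CMJ, where the organic anion transporter SLC22A8 was higher by 0.79, so that 1, 1 and 2 of 8 proximal markers were called. The log2 of the summed proximal signal ran from 17.10 to 17.23 in Ctl-C and from 17.02 to 17.58 in WI+CS6h-C, and from 17.01 to 17.16 in Ctl-CMJ and 16.94 to 17.58 in WI+CS6h-CMJ. SCNN1G, a sodium channel subunit and 1 of 8 distal markers, was higher by 0.65 in WI+CS6h-C and by 0.66 and 0.85 in cold-stored CMJ. The distal sums ran from 13.68 to 14.13 in Ctl-C and from 13.88 to 14.26 in WI+CS6h-C.

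CNN1, a smooth muscle protein and 1 of 5 stromal markers, was higher by 1.11 and 1.17 in cold-stored cortex, where the stromal sums ran from 11.93 to 12.34 in Ctl-C, 12.26 to 13.08 at 6 h and 12.31 to 12.89 at 24 h. The endothelial receptor KDR, 1 of 6, was higher by 0.59 and 0.65 in cold-stored CMJ, with sums of 11.80 to 12.53 in Ctl-CMJ and 12.08 to 12.40 in WI+CS6h-CMJ. Against WI samples the water channel AQP3 fell by 0.63 and 0.65 in cortex and by 0.88 at both times in CMJ, where SCNN1G rose by 0.79 and 0.97. In cold-stored cortex the sums of 2 other lists stood apart from controls, 1 of them at 6 h only, although none of their markers was called. That of the 2 podocyte markers on the array, PODXL and WT1, ran from 6.55 to 6.78 in Ctl-C and from 6.82 to 7.28 in WI+CS6h-C. In WI+CS24h-C it ran from 6.46 to 7.21 and overlapped controls. That of 6 adipocyte markers ran from 9.65 to 9.81 in Ctl-C, 9.81 to 10.19 in WI+CS6h-C and 9.84 to 10.19 in WI+CS24h-C. The part of all these markers in the changes of the members was not tested.

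Other immediate early genes were compared through a list of 25, of which 15 are on the array. As the background for this and the next lists, 0.0946%, 4.02% and 2.5% of all identifiers were called in either direction against controls in WI-C, WI+CS6h-C and WI+CS24h-C, and 0.687%, 3.19% and 3.65% in the same order in CMJ. FOS, the partner of JUN in AP-1, was called in all 6 comparisons with controls, by 1.27, 2.61 and 2.55 in cortex and by 2.59, 2.98 and 3.02 in CMJ. BTG2, an antiproliferative early gene, rose by 1.67 and 1.61 in cold-stored cortex and by 1.30, 1.86 and 1.95 in CMJ. CYR61, a secreted matrix protein, rose by 1.59 and 1.45 in cold-stored cortex, and JUN rose by 0.81, 0.92 and 0.94 in CMJ. CSRNP1, a nuclear early gene, rose by 0.55 in WI+CS6h-CMJ. Not all of the list moved upward. IER3, a survival factor, fell by 0.95 in WI-C and by 0.90 in WI-CMJ, and GADD45A fell by 0.95 in WI+CS6h-C. Against WI-C, BTG2 rose by 1.37 and 1.31 and FOS by 1.34 and 1.28 in cold-stored cortex. IER3 was higher by 0.57 in WI+CS6h-C than in WI-C and by 0.60 in WI+CS24h-CMJ than in WI-CMJ, and CTGF, a matrix protein related to CYR61, fell by 0.75 and 0.68 in cold-stored CMJ against WI-CMJ. Between tissues after WI, FOS was higher in CMJ by 1.48, CYR61 by 1.25 and CTGF by 1.22. CTGF was already higher in CMJ by 1.12 in controls, which was also called. The list's median change lay between 0.02 and 0.35 over the 6 comparisons, below the member median in each.

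**Figure D5:**
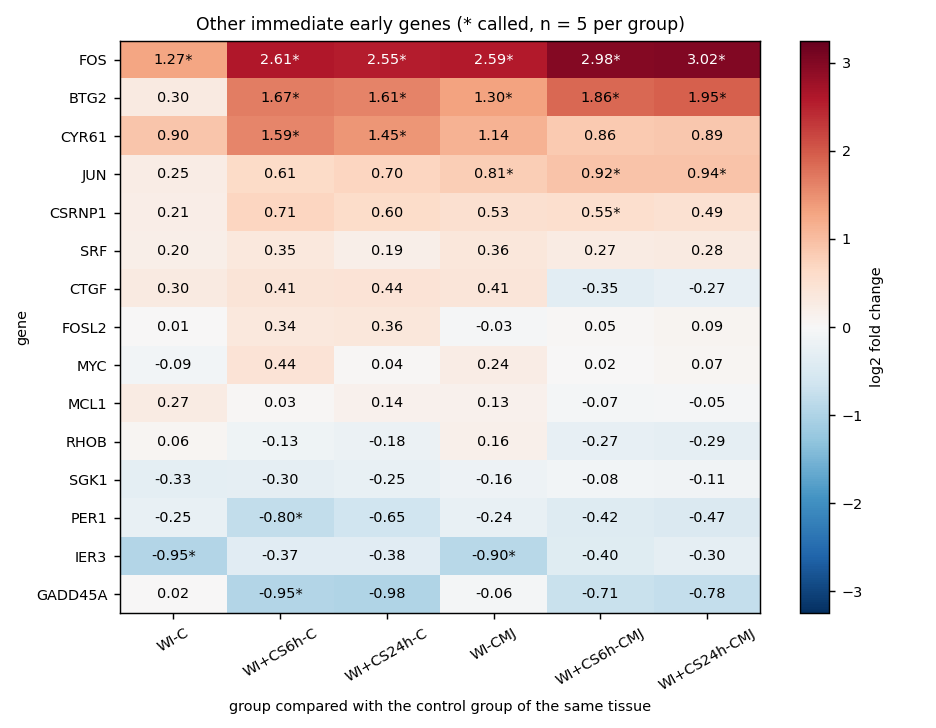
Log2 fold change (color and printed value) of the 15 immediate early genes on the array that are not members (rows) in the 6 ischemic groups against the control group of the same tissue (columns), 5 samples per group, with stars where called. FOS is called in all 6 columns at 1.27 to 3.02, and IER3 is called lower in the 2 WI columns.

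Genes known as targets of these factors were called against controls in part, 0 or 1 of the EGR1 list and 0 to 2 of the KLF list in a comparison. Of 9 EGR1 targets on the array, of 14 listed, only HBEGF, a growth factor of tubule repair, was called against controls, higher by 0.97 and 1.01 in cold-stored cortex and by 0.73, 0.72 and 0.72 in CMJ. In WI+CS6h-CMJ against WI-CMJ, F3, the tissue factor of coagulation, fell by 0.66 and VEGFA, an endothelial growth factor, rose by 0.50. Of 10 endothelial targets of KLF2 and KLF4, of 12 listed, EDN1, the vasoconstrictor endothelin, fell by 1.04 and 1.07 in cold-stored cortex and by 1.53 and 1.34 in cold-stored CMJ, at a signal well above background on all 20 control and WI arrays and on 1 to 3 of 5 in each cold-stored group. Against WI samples it fell by 1.31 and 1.34 in cortex and by 1.93 and 1.74 in CMJ. SELE, a leukocyte adhesion molecule, was called higher in WI+CS6h-C (adjusted p = 0.0456) but was not well above background on any Ctl-C array, so no fold is given. The KLF list mixes genes these factors are known to raise with others, EDN1, SELE and VCAM1, that they are known to lower, so its median has no single expected direction. The medians of the EGR1 targets lay between −0.10 and 0.14 and those of the KLF targets between 0.11 and 0.32, beside medians over all identifiers between −0.01 and 0.05.

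Of the members' own relatives, the other KLF factors, 0 to 2 were called against controls in a comparison, each of them lower. Among the other KLF factors, 14 of 14 on the array, KLF15, a metabolic and podocyte factor, fell by 0.86 and 0.89 in cold-stored cortex, and in CMJ it fell by 0.74 and 0.78. Against WI samples KLF15 fell by 0.87 and 0.89 in cortex and by 0.80 and 0.84 in CMJ. KLF5 fell by 0.58 and 0.55 in cold-stored CMJ against controls and by 0.81 and 0.78 against WI-CMJ, and KLF9 fell by 0.62 in WI+CS24h-C. None of the other KLF factors was called higher against controls. Of 9 upstream kinases and factors on the array, of 21 listed, 0 were called against controls in limma, and of 2 feedback inhibitors, of 13 listed, 0 were. MEF2D was called lower in WI+CS24h-CMJ than in WI-CMJ (adjusted p = 0.0447), but was well above background on only 2 of 40 arrays, so no fold is given. DUSP6, a phosphatase that ends ERK signaling, was higher in CMJ than in cortex by 0.76 in controls and by 0.82 after WI. RXRB, a partner receptor of NR4A2, fell by 0.52 and 0.55 in cold-stored CMJ against WI-CMJ.

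The genes with the most similar pattern were found by Pearson's r over the 40 arrays among 6880 identifiers with a symbol that were well above background on at least 20 arrays. These values describe arrays that share groups and conditions. For EGR1 they were the 2 identifiers of FOS (r = 0.953 and 0.952) and PLK3, a stress kinase (r = 0.855). For NR4A2 (NM_001190276) they were BTG2 (r = 0.936), MEF2A (r = 0.915) and CEBPA (r = 0.901), MEF2A through an identifier other than the one that stood for it in the upstream list. For KLF4 they were TEK, an endothelial receptor that is also on the list of KLF targets (r = 0.855), FOS (r = 0.832) and RUNX1T1 (r = 0.821). KLF2, KLF6 and NR4A3 had looser matches, led by ID4 (r = 0.802), BTG2 (r = 0.763) and NFIL3 (r = 0.740). Among the members, NR4A2 and NR4A3 varied together within groups, with r = 0.683 over the 40 arrays after group means were taken out, whereas EGR1 and NR4A2 gave r = −0.03.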

How the data were processed

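RNA of 40 pig kidney samples, 8 groups of 5, had been hybridised to single-color Agilent porcine arrays. The deposited files hold probe intensity from Feature Extraction 11.5.1.1, and the authors also deposited a matrix of log2 values made in R 2.15.2 with limma, used here only as an alternative. Processed signals of 43803 non-control spots were taken to log2, spots marked as outliers were set to missing, arrays were quantile normalized together and spots were averaged to 35955 identifiers. Groups came from the labels. Probe sequences of EGR3 are not reported here. limma 3.58.1 in R 4.3.3 was fitted to the 20 arrays of each tissue, and to all 40 for interactions and tissue differences, with Benjamini-Hochberg adjustment over all identifiers. Calls needed an adjusted p below 0.05 and a log2 fold change of 0.5 or more in size. The fit was tested on simulated data. "At least" folds set the brighter group's mean against the lowest signal well above background on the dim group's arrays, or the probe's own where higher. They are approximate, since a probe can fail to be well above background at a higher signal. The number of arrays limits the precision.

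All member identifiers are named, and from each gene list those called, up to 4 per list and comparison. Members and lists were chosen with earlier results of these data known. The p-values measure the spread between these samples. Samples of a number at 6 h and 24 h come from the same kidney per the labels. Over 21743 identifiers, deviations of same-numbered samples correlated at 0.59 to 0.84 in CMJ and −0.42 to 0.62 in cortex. Same-numbered cortex and CMJ samples correlated at 0.11 to 0.42 in WI, 0.16 to 0.63 in WI+CS6h and 0.22 to 0.66 in WI+CS24h, and at −0.21 to 0.21 in controls, so numbers were taken to pair tissues except in controls. Alternatives changed the normalization, background correction, filter, probe averaging, blocks, scan day, arrays fitted and single arrays.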

Additional observations from a re-analysis of the deposited data

Results flagged for a closer look

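In 9 of 72 groups of 5 samples, the lowest or highest sample stood apart from the others by more than Dixon's critical share of the range, 0.71. Chance gives about 1 in 20 such groups. For NR4A2 (NM_001190276), replicate 5 stood low at 6.92 in WI+CS6h-C, at 7.00 in WI+CS24h-C and at 6.85 in WI+CS6h-CMJ. These are samples of the same cold-stored kidney number, and those of the cortex are the same kidney at both times. KLF6 stood low at 7.04 in replicate 1 of WI+CS6h-CMJ, where 1 probe was missing from the average, and at 7.23 in replicate 5 of WI-C. NR4A3 stood low at 4.15 in replicate 4 of Ctl-CMJ. KLF2 stood high at 7.26 in replicate 5 of Ctl-C. EGR2 stood high at 1.28 in replicate 2 of Ctl-CMJ and at 1.87 in replicate 5 of WI+CS24h-CMJ, both not well above background.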

How the results depend on the processing

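The 31 calls, each of 1 identifier in 1 comparison, have 553 values under other settings, of which 425 were called, 128 were not and 0 changed direction. The larger moves in the counts of members called were as follows, smaller moves are left out, and the cause was not tested unless stated. With normexp, which compresses low signals, the count in cortex fell from 1 to 0 after WI, from 5 to 1 at 6 h and from 5 to 1 at 24 h against controls, and from 3 to 1 at both times against WI. In CMJ it went to 0 after WI, to 1 at 6 h and 1 at 24 h against controls, to 0 at 6 h against WI, and to 1 between tissues after WI. In the deposited log2 matrix the counts were 0 after WI and 3 at 6 h in cortex, and 1 after WI, 3 at 24 h and 0 at 6 h against WI in CMJ. With 75th percentile scaling they were 3 at 6 h in cortex, 1 after WI in CMJ and 0 at 6 h against WI in CMJ. Quantile normalization within each group gave 5 at 6 h in CMJ and 2 in the interaction of tissue with WI+CS6h against WI (KLF4 −0.98, EGR1 −1.18). Leaving out identifiers well above background on fewer than 5 arrays gave 4 after WI in CMJ. With slide as a block the counts were 0, 3 and 2 against control cortex, 0 and 0 against WI-C, 0 after WI and 2 at 24 h in CMJ, and 0 at 6 h against WI-CMJ. With the share of spots well above background as a covariate they were 0 after WI in cortex, 1 after WI in CMJ and 0 at 6 h against WI-CMJ. With fewer arrays fitted, by construction less precise, scan day 1 gave 0, 2 and 2 against control cortex, 1 and 1 against WI-C, 0 in each of the 5 CMJ comparisons with calls and 0 between tissues after WI. Scan day 2 gave 0, 0 and 0 against control cortex, 0 and 0 against WI-C, 3 at 24 h in CMJ and 1 between tissues. The arrays of the compared groups alone gave 0 after WI and 3 at 6 h in cortex, 1 at 6 h against WI-C, 3 at 24 h in CMJ, and 0 and 0 against WI-CMJ.

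With the replicate block, 27 of the 31 calls held. The count was 0 after WI in cortex, where EGR1 had an adjusted p of 0.0746, and 0 at 6 h against WI-CMJ (NR4A2, adjusted p = 0.05003). In WI+CS24h-CMJ against controls KLF6 (adjusted p = 0.0679) and NR4A3 (adjusted p = 0.0517) were lost and KLF4 was gained (0.80, adjusted p = 0.0494). WI and cold-stored numbers are not paired with controls, and for 24 h against 6 h, which is paired, the block gave 0 calls in both tissues. With the block nested in the condition, chosen after seeing the data, 1 member was called between control tissues (NR4A3, −0.72, adjusted p = 0.0344), where numbers do not pair tissues, and no other call changed.

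With 1 array left out, counts ran from 0 to 1 after WI, 4 to 6 at 6 h and 4 to 5 at 24 h in cortex, and from 3 to 3 and 2 to 3 against WI-C. In CMJ they ran from 1 to 3, 3 to 4 and 3 to 6 against controls, from 0 to 1 at both times against WI, and from 2 to 2 between tissues after WI, and were 0 elsewhere. EGR1 at 24 h against WI-C was lost without WI+CS24h-C replicate 2 (1.04, adjusted p = 0.0567). EGR2 was called at 6 h in cortex without WI+CS6h-C replicate 2 (0.76, adjusted p = 0.0137), below background. KLF6 at 6 h was lost without any of Ctl-C 1 to 4 or WI+CS6h-C 1 or 3, at 24 h without Ctl-C 1 to 4 or WI+CS24h-C 1, 2 or 4, and in WI+CS24h-CMJ without any of replicates 1 to 4 of either group. Signal near background limits EGR1, EGR2, EGR3, AK346348 and the NR4A3 probe at base 1356.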
